A study of Mus musculus with 4 samples.

Results

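The genes described here are the cytosolic ribosomal protein genes, the 77 of 17508 gene rows whose symbols carry the ribosomal protein prefixes Rps or Rpl and that stand in all 4 deposited tables. They comprise 31 genes of the small subunit and 46 of the large subunit. The symbols of 7 further rows have the same form but stand in fewer than 4 tables (Rpl10l, Rpl26, Rpl30, Rpl34, Rpl39l, Rpl3l and Rps27) and were left out. Single members were taken by the form of their names alone, but the group of genes was chosen with earlier results of these data known.

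The cells were single bone marrow cells of C57BL/6 mice, all negative for the integrin chain CD51, and sorted by the adhesion receptor CD44 into CD44+ and CD44- cells. The labels call them TNCs, an abbreviation they do not spell out, and give no age, sex, number of animals, treatment or altered allele for either sort. Transcripts were counted by SORT-seq, a method in which each cell is sorted into a well of a plate and every transcript is tagged near its 3′ end with a unique molecular identifier. A CD44+ plate and a CD44- plate shared a flow cell, and on another flow cell 2 shared plates each held CD44+ cells in rows A to H and CD44- cells in rows I to P, so that every sort had 3 libraries. The 343 of 1536 wells with at least 1000 transcripts were analysed, 238 CD44+ and 105 CD44-.

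Each ribosome is built from a small subunit, which reads the mRNA, and a large subunit, which forms the peptide bonds, and their proteins are needed in nearly equal numbers. Most of their mRNAs begin with a run of pyrimidines, the 5′ terminal oligopyrimidine tract, through which mTOR signalling and the RNA-binding protein LARP1 set their translation and stability. In bone marrow these genes are known from Diamond-Blackfan anaemia, in which the loss of a single copy of RPS19, RPL5, RPL11 or another ribosomal protein gene impairs the formation of red cells.

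The pyrimidine run is a sequence feature that the choice by name did not use, so it was looked up at the annotated starts of the members. RefSeq (GRCm38.p6, the assembly of mm10) gave a start for 58 of the 77 members. Where a gene had several starts, the one with the longest run was used, for members and for all genes alike. Genes with more starts thus had more opportunities to show a run. The run was counted from no further than 5 bases upstream of the start, and one of at least 6 bases C or T was present in 24 of those 58 (41.4%), against 4298 of 27025 genes in all (15.9%). The windows below cover 30 bases around the start, from promoter into the 5′ end of the transcript, with the run in capitals and the gene's strand read 5′ to 3′; pyrimidines further upstream that extend a run are in lower case and were not counted. The first 5 are the members called higher in the CD44+ sort in the paired fit for which a start was given, and the other 4 are members of high level or members to which the results return.

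Rpl35 (chr2:39005117-39005146, minus strand): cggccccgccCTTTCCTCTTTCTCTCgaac
Rps10 (chr17:27635230-27635259, minus strand): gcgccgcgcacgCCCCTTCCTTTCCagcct
Rpl14 (chr9:120571502-120571531, plus strand): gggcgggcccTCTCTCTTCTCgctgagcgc
Rps18 (chr17:33955651-33955680, minus strand): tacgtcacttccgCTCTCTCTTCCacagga
Rps2 (chr17:24720048-24720077, plus strand): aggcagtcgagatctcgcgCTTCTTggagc
Rplp0 (chr5:115559452-115559481, plus strand): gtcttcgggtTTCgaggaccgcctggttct
Rpl36al (chr12:69184053-69184082, minus strand): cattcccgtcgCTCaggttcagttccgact
Rpsa (chr9:120127751-120127780, plus strand): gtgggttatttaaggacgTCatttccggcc
Rps12 (chr10:23787195-23787224, minus strand): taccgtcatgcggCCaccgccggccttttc

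Counted this way, runs of 16, 13, 11, 11 and 6 pyrimidines stood at the starts of Rpl35, Rps10, Rpl14, Rps18 and Rps2, while at the annotated starts of Rplp0, Rpl36al, Rpsa and Rps12 they counted 3, 3, 2 and 2 bases. A run that is short at an annotated start says only that these letters are not in this window. The windows printed are a selection, and runs were not confined to called members. At Rps9 and Rps6, which were not called, they counted 8 and 10 bases. Medians of members with and without the run lay close together. The 21 tested members with a run of at least 6 had a median log2 difference between the sorts of 0.75, and the 32 without it had 0.63.

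Depth differed widely between the libraries. The kept wells summed to 149707, 1118722 and 1707318 transcripts in the CD44+ plate and the CD44+ blocks of shared plates 1 and 2, and to 97041, 101367 and 158763 in the CD44- libraries in the same order. In 118 of the 343 wells quality was low, meaning that mitochondrially encoded transcripts made up at least 50% or that Kcnq1ot1 and 7 rows whose share rose and fell with it made up at least 10%, limits that were set after the data were seen. These wells numbered 31 of 56, 39 of 95 and 22 of 87 in the CD44+ libraries and 19 of 44, 2 of 24 and 5 of 37 in the CD44- libraries, and ribosomal protein transcripts made up 2.67% of their sum against 14.2% in the other wells. The wells of the CD44- block of shared plate 1 were the most alike. The middle 50% of its 24 wells had mitochondrial shares of 28.9 to 31.9% and ribosomal protein shares of 8.10 to 9.09%. The 57 wells of that block with 300 to 1000 transcripts had 30.5% and 8.02%, values close to those of its kept wells. Levels are given as CPM, counts per 1000000 transcripts of the library. Cd44 transcripts themselves did not separate the sorts: their level was 124, 345 and 113 CPM in CD44- and 93.5, 284 and 225 CPM in CD44+. Itgav, which encodes CD51, was detected in all 6 libraries at 6.45 to 120 CPM.

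The first question was how much of each sort's RNA these genes supply. Together the 77 members made up a larger part of the CD44+ libraries than of the CD44- libraries, and the gap was smaller when Car1-led wells, described further on, were left out. The share was 10.7% (95% Wilson interval 10.5 to 10.9) in the CD44+ plate, 11.3% (11.3 to 11.4) in the CD44+ block of shared plate 1 and 14.5% (14.4 to 14.5) in that of shared plate 2. In the CD44- libraries it was 6.76% (6.60 to 6.92), 7.54% (7.37 to 7.70) and 7.65% (7.52 to 7.78). All CD44+ libraries lay above all CD44- libraries, with means of 12.2 ± 2.03% and 7.31 ± 0.485% (SD, n = 3 each) and a difference of 4.87 percentage points. The intervals cover counting error only. No p is given for the summed share, because the genes were chosen with earlier results of these data known.

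The size of the difference depended on how wells were weighted and which were kept. When each well counted equally, the mean share was 8.70, 6.70 and 11.4% in the CD44+ libraries and 6.98, 7.90 and 6.87% in the CD44- libraries, so that on shared plate 1 the CD44- cells were higher, and the difference between the means was 1.68 points. A sum weights each well by its depth, and the median well held 1994, 5162 and 11225 transcripts in the CD44+ libraries and 1848, 1795 and 2544 in the CD44- libraries. Without the wells of low quality the shares of the sums were 17.2, 13.5 and 15.6% against 10.3, 7.61 and 7.84%, again without overlap, and the difference was larger, at 6.82 points. It was also larger without mitochondrially encoded transcripts, at 6.66 points, and among wells with at least 2000 transcripts, at 5.52 points.

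**Figure D1:**
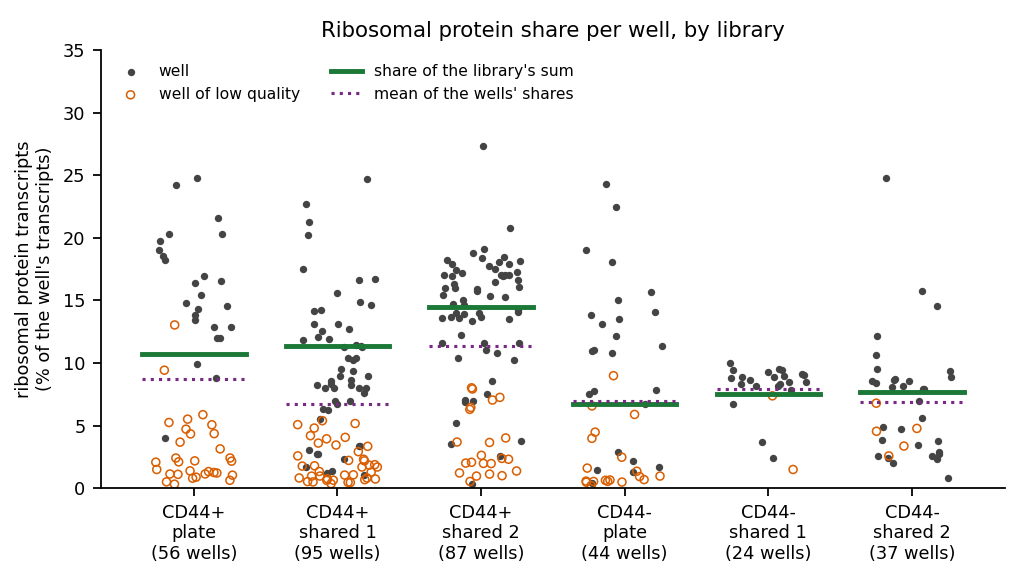
Share of ribosomal protein transcripts in each of the 343 wells (vertical axis, percent of the well's transcripts) for the 6 libraries; open circles are wells of low quality, the solid line is the share of the library's summed transcripts and the dotted line the mean of the wells' shares. The solid lines lie at 10.7 to 14.5% for CD44+ and 6.76 to 7.65% for CD44-, and the wells of the CD44- block of shared plate 1 lie close together.

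Small and large subunit shares were correlated across wells, in 1 library weakly by rank. Across the wells of a library the summed share of the small subunit members and that of the large subunit members had a Pearson correlation between 0.862 (24 wells of the CD44- block of shared plate 1) and 0.985 (95 wells of the CD44+ block of shared plate 1), a description in which both shares have the well's total in common. Spearman's rho was 0.926 to 0.981 in 5 libraries and 0.366 in the CD44- block of shared plate 1. Large subunit transcripts outnumbered small subunit transcripts 1.24 to 1.35 times in all 6 libraries, with the ranges of both sorts overlapping.

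Single members spanned more than 3 orders of magnitude in level. SORT-seq counts each transcript once, so levels were compared between genes as CPM without dividing by gene length. Averaged over the 6 libraries they ran from 3.15 CPM for Rpl22l1 to 3641 for Rpl4, with a median of 1187; 52 members exceeded 1000 CPM and 5 were below 100. The 10 highest held 24.99% of all ribosomal protein transcripts. Reads can be misassigned, because 65 of the 77 members share 31-base stretches near the 3′ end with a pseudogene, and in 45 members more than 50% of the stretches in the last 400 bases of the transcript occur in another gene. The level of such a member is uncertain where the authors' counting, which is not given in the sources used here, split or dropped reads.

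Of the 72 members with enough transcripts to test, 71 had a higher fitted level in the CD44+ sort, but none passed the edgeR threshold (adjusted p under 0.05) without pairing. The median log2 difference of the 72 was 0.72, against -0.04 over all 2463 genes tested. The smallest adjusted p was 0.0813, from edgeR's quasi-likelihood test with Benjamini-Hochberg adjustment over all genes, and 30 members had an unadjusted p under 0.05 in that test, as had 470 of the 2463 genes. Over all genes 0.0406% were called higher and 0.974% lower. With the plate pair as a block, edgeR called 9 members higher, among them Rpl14, Rpl29, Rpl35, Rpl36, Rplp1, Rps2, Rps10 and Rps18, and 0 lower, where 1.75% of all genes were called higher and 4.59% lower; DESeq2 without the block called 10 members and 0.207% of 16917 genes higher.

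The sums themselves separated the sorts for most members. For 57 of the 72 tested members every CD44+ library lay above every CD44- library, which 16.8% of all tested genes did, and 66 were higher in the CD44+ library of all 3 pairs, which 29% of all genes were. The labels do not say whether plates came from separate animals, so the p-values reflect only how these libraries vary, and that variation may be technical.

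**Figure D2:**
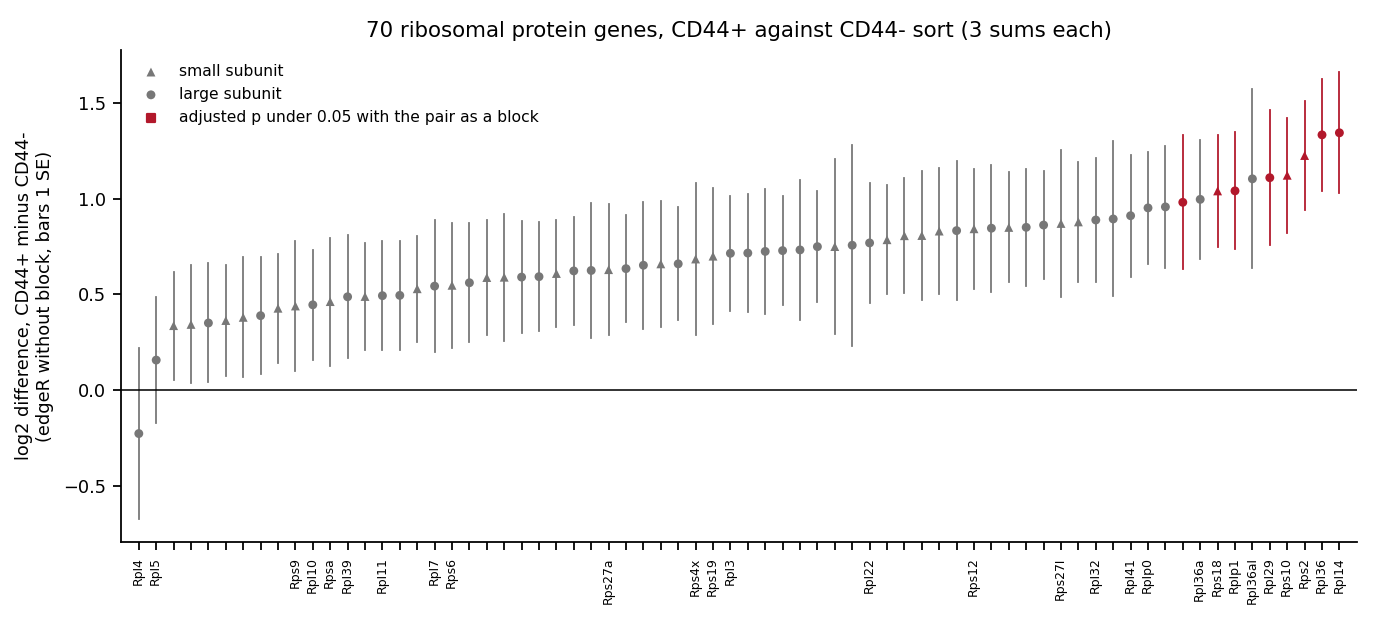
Log2 difference between the CD44+ and CD44- sorts for 70 of the 72 tested members, ordered by size (edgeR without block, bars 1 SE, n = 3 libraries per sort); triangles are small subunit and circles large subunit members, red marks an adjusted p under 0.05 with the plate pair as a block, and names are given for the members that the naming rule picks. All points but Rpl4 lie above 0, and the 8 in red are among the 10 largest shown.

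Small subunit members were among those called with the block. Rps2 (chr17:24718116-24721929), a protein of the part of the small subunit where the mRNA enters, counted 1898, 2839 and 3222 CPM in CD44+ and 856, 1136 and 1163 in the CD44- libraries. The lowest CD44+ library was above the highest CD44- library, and the log2 difference was 1.23 ± 0.29 (SE; edgeR adjusted p = 0.0930, and 0.0233 with the block). Rps10, whose human counterpart is among the Diamond-Blackfan anaemia genes, counted 1285, 1232 and 1557 CPM against 557, 662 and 542, and Rps18, a protein of the head of the small subunit, 1151, 1454 and 2213 against 649, 701 and 801. Neither gene's groups overlapped, and their log2 differences were 1.12 ± 0.30 and 1.04 ± 0.29.

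Among large subunit genes, Rpl36 and Rpl14 differed most in relative terms. Rpl36 (chr17:56613416-56614243) counted 755, 808 and 1132 CPM across the CD44+ libraries and 258, 375 and 372 in the CD44- libraries, and its log2 difference of 1.33 ± 0.29 had the smallest p of all members (edgeR adjusted p = 0.0813, and 0.0258 with the block). Rpl14 (chr9:120571444-120574654) counted 635, 900 and 1224 against 247, 306 and 454, a log2 difference of 1.35 ± 0.32 (edgeR adjusted p = 0.0930, and 0.0208 with the block). In both genes the sorts did not overlap. Rpl29 was more even within each sort, at 783, 822 and 876 CPM against 443, 326 and 296, and Rpl36a stood at 588, 716 and 965 against 299, 286 and 473. Of these 4 genes Rpl36a was not called with the block (edgeR adjusted p = 0.0580).

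The stalk proteins, which recruit elongation factors to the large subunit, did not have 1 level in common. Rplp1 counted 2925, 3043 and 4131 CPM in CD44+ and 1433, 1623 and 1516 in CD44-, and its partner Rplp0 2343, 2496 and 3102 against 1186, 1305 and 1359. Both were without overlap, with log2 differences of 1.04 ± 0.31 and 0.95 ± 0.29 (edgeR adjusted p with the block 0.0452 and 0.0544). The third stalk gene, Rplp2, was nearly absent from the tables, at 2, 35 and 49 transcripts in the CD44+ libraries and 3, 1 and 0 in the CD44- libraries, and was too low to test; for the library at 0 the count allows up to 18.9 CPM. Rps15a, Rpl37, Rpl7l1 and Rpl22l1 were the other members too low to test.

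The most abundant members fell on both sides of the median difference of 0.72. Rpsa, a small subunit protein first described as a laminin receptor precursor, counted 3950, 3857 and 4306 CPM in CD44+ and 2591, 3262 and 2460 in CD44-, and Rps9 2855, 2529 and 2693 against 1846, 2148 and 1674. Neither pair of groups overlapped, and the log2 differences were 0.46 ± 0.34 and 0.44 ± 0.34 (edgeR adjusted p = 0.476 and 0.502). Rps12, at 3111, 3131 and 4442 against 1692, 1721 and 2172, differed by 0.84 ± 0.31 (edgeR adjusted p = 0.207).

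Rpl4, a large subunit protein lining the peptide exit tunnel, was the 1 tested member with a negative fitted difference, -0.23 ± 0.45. It counted 2657, 3640 and 4067 CPM across the CD44+ libraries and 2083, 6627 and 2772 in the CD44- libraries. The value of 6627 came from the CD44- block of shared plate 1, the library whose wells were most alike, and without that library the log2 difference was 0.41.

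Some members have named roles beside translation. Rpl5 and Rpl11, which bind the 5S rRNA and, when not built into ribosomes, the p53 inhibitor MDM2, counted 1688, 1863 and 2390 against 1144, 2338 and 1566 CPM and 1359, 1317 and 1726 against 887, 958 and 1104. Rpl5 overlapped between the sorts and Rpl11 did not, and the log2 differences were 0.16 ± 0.33 and 0.49 ± 0.29. Rps6, the small subunit protein that S6 kinase phosphorylates, counted 2191, 2353 and 2819 against 1072, 2150 and 1580. Rps19, the gene most often mutated in Diamond-Blackfan anaemia, counted 977, 1183 and 1427 against 753, 424 and 858. For Rps6 and Rps19 the lowest CD44+ library exceeded the highest CD44- library, with log2 differences of 0.55 ± 0.33 and 0.70 ± 0.35, and edgeR called neither (adjusted p = 0.388 and 0.313).

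Rps27a is made as a fusion of ubiquitin and a ribosomal protein; it counted 2164, 1707 and 2546 CPM against 1433, 1225 and 1230, a log2 difference of 0.63 ± 0.34. Rpl41, which encodes a very short basic peptide, counted 2559, 2328 and 3300 against 1103, 1265 and 1778, and the X-linked Rps4x 1721, 1447 and 1905 against 1217, 612 and 1112. All 3 genes were without overlap between the sorts, and edgeR called none of them, also with the block.

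Members with a paralogue in the tables were compared with it in level. Rpl22, a large subunit protein with a role in lymphocyte development, counted 508, 715 and 1065 CPM against 340, 365 and 530, while its paralogue Rpl22l1 had 1, 4 and 4 transcripts in the CD44+ libraries and 0, 0 and 1 in the CD44- libraries. The libraries at 0 allow up to 30.9 and 29.6 CPM. Rpl7 averaged 1450 ± 254 CPM in CD44+ and 944 ± 292 in CD44- (SD, n = 3 each), and Rpl7l1 66.4 ± 14.1 and 54.3 ± 20.5. Rpl36a and its intron-poor relative Rpl36al were closer to each other than the sorts were, at 756 ± 191 against 353 ± 104 and 490 ± 53.5 against 209 ± 102; all 31-base stretches at the 3′ end of Rpl36a recur in other genes, so its level is uncertain. Rpl3, Rpl39 and Rpl10 averaged 1598 ± 262, 1140 ± 157 and 2116 ± 285 CPM in CD44+ and 928 ± 170, 747 ± 136 and 1448 ± 25.6 in CD44-, and their paralogues Rpl3l, Rpl39l and Rpl10l stand in fewer than 4 tables. Rps27l, which p53 induces, averaged 264 ± 68.7 and 133 ± 39.5.

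The sorts were mixtures of blood-forming and stromal cells, and the ribosomal protein share was next read by cell type. Each well was assigned to the marker with the most transcripts among Car1 (carbonic anhydrase of early red cell precursors), Alas2 (heme synthesis in later red cell precursors), Cd79b (B cell receptor signalling), S100a8 (neutrophil lineage) and Cxcl12 (the chemokine of marrow stromal cells), if it had at least 3 and no tie. This placed 200 of the 343 wells. Marker lists were then summed without these 5 markers. In S100a8-led wells 9 other neutrophil lineage markers summed to 66973 CPM, against 658 and 814 in Alas2-led and Cxcl12-led wells, and 9 other stromal markers reached 11615 in Cxcl12-led wells and 35.8 to 424 in those led by another marker. Cd79b-led wells held 5774 CPM of 7 other B progenitor markers but also 5937 of the neutrophil list. The early erythroid list did not separate Car1-led from Alas2-led wells, at 8640 and 11002 CPM for 9 other markers, while the late erythroid list of 6 other markers had 3196 and 47584. In Cd79b-led wells Adipoq and Col1a1 were at 0, which allows up to 7.59 CPM. In Alas2-led wells Cd79b, Kitl, Sparc, Vcam1, Runx2, Adipoq and Col1a1 were at 0, which allows up to 42.02 CPM. Other genes of the same lists were detected, such as Cxcl12 at 37.94 CPM in Cd79b-led wells. In Alas2-led wells Cxcl12 was at 112.06 CPM and Cd79a at 84.04.

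Car1-led wells were richest in ribosomal protein transcripts; by sum Cxcl12-led wells were poorest, and by median well Alas2-led wells. The 71 Car1-led wells held 16.1% of ribosomal protein transcripts in their sum and the 34 Cxcl12-led wells 3.62%, with 12.9% in the 36 Cd79b-led, 9.73% in the 11 Alas2-led and 9.12% in the 48 S100a8-led wells. The 143 wells without a leading marker had 6.54%, and 93 of them were of low quality. The median well had 16.1, 11.3, 2.07, 7.86 and 3.24% for Car1, Cd79b, Alas2, S100a8 and Cxcl12, and in Alas2-led wells the sum lay far above the median well. Depth moved with these classes, at a median of 18842, 5879, 2317, 2592 and 4660 transcripts per well in the same order. After thinning each well to 1000 transcripts, the median well still showed transcripts of 59 of the 77 members if Car1-led, 52 if Cd79b-led, 39.5 if S100a8-led, 25 if Cxcl12-led and 17 if Alas2-led; unthinned, these were 73, 71, 59, 58 and 46.

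Among sums of at least 3 wells, the Car1-led sum was the highest in all 3 CD44+ libraries, and the Cxcl12-led sum was the lowest in 3 of the 4 libraries that had one. Car1-led sums had 18.5, 15.1 and 16.3% in the CD44+ plate and the CD44+ blocks of shared plates 1 and 2, from 15, 10 and 43 wells. Cxcl12-led sums had 3.71 and 2.44% in the CD44+ blocks of the shared plates and 5.10 and 4.07% in the CD44- plate and the CD44- block of shared plate 2, all below every sum led by Car1, Cd79b or S100a8 except the S100a8-led sum of the CD44- plate at 4.93%. Alas2-led sums had 10.9% in the CD44+ block of shared plate 2 and 4.04% in the CD44- plate, where the Cxcl12-led sum was the higher one. The Cxcl12-led sums were small, with 475 to 3714 ribosomal protein transcripts each, and the widest of their 95% Wilson intervals ran from 4.67 to 5.57%.

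Within a class the order of the sorts differed between classes. Cd79b-led sums had 13.3, 12.3 and 14.2% in CD44+ libraries and 8.06 and 13.4% in CD44- libraries, and S100a8-led sums 7.49, 9.23 and 10.4% against 4.93 and 8.29%. Both classes overlapped between the sorts when unpaired, but in each pair with both sums the CD44+ sum was higher: 13.3 against 8.06% and 14.2 against 13.4% for Cd79b, and 7.49 against 4.93% and 9.23 against 8.29% for S100a8. In Cxcl12-led wells and in wells without a leading marker the CD44- sums were the higher ones. The marker-free sums had 7.49, 7.86 and 8.41% against 4.66, 6.98 and 5.59%. Of these marker-free wells 14 of 27, 1 of 8 and 4 of 13 were of low quality in CD44- and 25 of 32, 34 of 43 and 15 of 20 in CD44+. Of the Cxcl12-led wells in these sums 1 of 4 and 1 of 17 were in CD44- and 2 of 6 and 3 of 5 in CD44+. Without mitochondrial and Kcnq1ot1-type transcripts the sorts overlapped in both classes. The Cxcl12-led sums then had 5.98 and 4.66% in CD44- and 5.52 and 4.23% in CD44+. The marker-free sums had 12.5, 12.6 and 11.1% in CD44- and 11.2, 14.5 and 14.7% in CD44+. By this measure the paired Cd79b-led sums were 15.06 against 10.3% and 16.4 against 15.07%, CD44+ first. The paired S100a8-led sums were 11.2 against 5.65% and 11.6 against 11.8%, so that on shared plate 1 the CD44- sum was the higher one. Of the S100a8-led wells in these pairs 4 of 6 and 1 of 14 were of low quality in CD44+ and 3 of 7 and 1 of 12 in CD44-. Car1-led wells were almost all CD44+, with 1 and 2 wells in the CD44- blocks of shared plates 1 and 2.

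**Figure D3:**
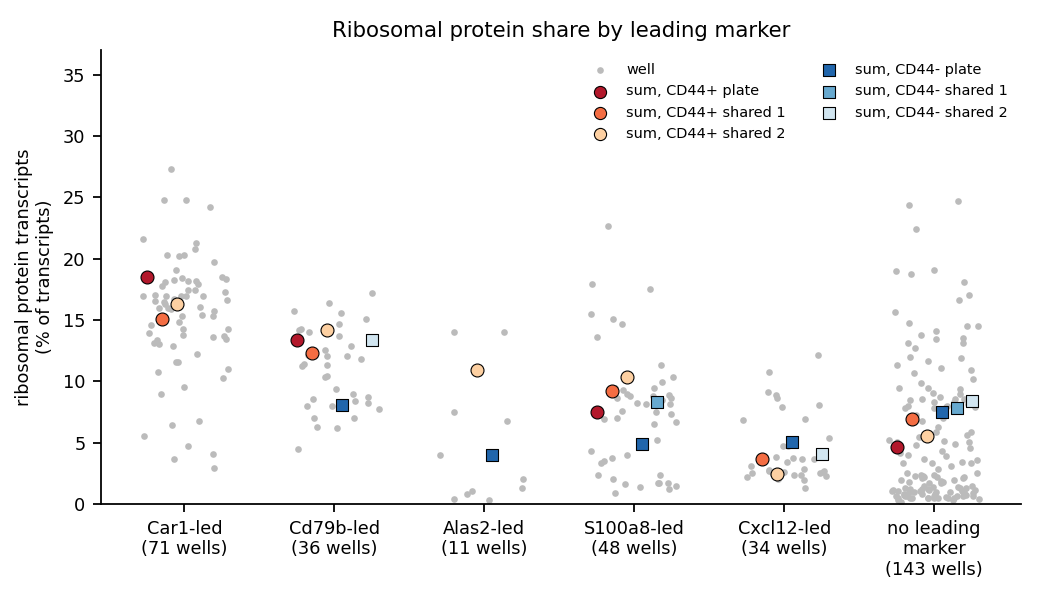
Share of ribosomal protein transcripts by leading marker (vertical axis, percent); grey points are wells and coloured symbols the sums of at least 3 wells of a library (circles CD44+, squares CD44-). Car1-led sums lie at 15.1 to 18.5% and Cxcl12-led sums at 2.44 to 5.10%.

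Cell composition moved with the sorts beside the ribosomal protein share, and in a library's sum more cells of a kind and more RNA per cell cannot be told apart. Early erythroid markers summed to 6601, 3966 and 9419 CPM across the CD44+ libraries and 1651, 1520 and 2433 in the CD44- libraries, and the 10 stromal markers to 154, 1248 and 765 against 5420, 11008 and 27504. The other lists overlapped between the sorts and varied within them. Neutrophil lineage markers had 4841, 12622 and 9790 CPM in CD44+ and 26052, 36781 and 1285 in CD44-. Late erythroid markers had 1512, 2276 and 2732 against 35490, 1998 and 4745, and B progenitor markers 895, 2476 and 171 against 2021, 2015 and 1671. Without the Car1-led wells, an alternative chosen after seeing the data, the share was 5.75, 9.02 and 9.47% in CD44+ and 6.76, 7.51 and 6.49% in CD44-, which overlap, the difference shrank to 1.16 points, and within pairs it was -1.01, 1.505 and 2.98 points. Without the Cxcl12-led wells it was 10.7, 11.6 and 14.9% against 6.93, 8.18 and 12.5%, a difference of 3.21 points with overlap when unpaired and of 3.77, 3.44 and 2.42 points within pairs. The median log2 difference of the members was 0.50 without Car1-led wells (70 of 72 above 0) and 0.39 without Cxcl12-led wells (69 of 72 above 0). In either setting edgeR called 0 members and 0 genes in all. Its unadjusted p was under 0.05 for 6 and 10 members, beside 119 of 1759 and 224 of 1783 genes tested. The shares of members and of all genes were thus near each other.

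A looser reading, by any transcript of a marker, blurred the classes. Wells with a Car1 transcript (149) had 14.3% and those without 8.75%, and wells with an Alas2 transcript (58) 14.5% against 11.6%. Wells with any Cd79b, S100a8 or Cxcl12 transcript had 12.8, 12.3 and 12.3%, against 12.4, 12.7 and 12.7% in wells without. Car1-led wells held Cxcl12 at 32.4 CPM and Cxcl12-led wells at 26370, and the median depth of these wells was 18842 and 4660 transcripts.

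Single members were then compared between classes with the Car1-led wells as reference and the library as a block, on sums of at least 3 wells. With TMM scaling all 72 tested members had fitted levels below those of Car1-led wells in each of the 4 other classes, but few of the differences passed the test outside the stromal wells. In Alas2-led wells the median log2 difference was -1.26 (all genes -0.52). There edgeR called 0 members, while 0% of the 2747 genes tested were called lower and 0.182% higher. Its unadjusted p was under 0.05 for 7 of the 72 members and 177 of the 2747 genes. In Cd79b-led wells the median was -0.75 (all genes -0.16) and edgeR called 0 members, where 5.5% of genes were called lower and 11% higher. Its unadjusted p was under 0.05 for 6 of the 72 members and 673 of the 2747 genes, a smaller share of the members than of all genes. DESeq2 called 0 members in Alas2-led and in Cd79b-led wells. In S100a8-led wells the median was -0.996 (all genes -0.08) and Rps2 and Rpl36al were called lower, 2 of 72, while 4.11% of genes were lower and 13.1% higher. Under DESeq2's size factors in place of TMM the all-gene medians rose to -0.11, 0.13 and 0.29, and 5, 6 and 5 members were above 0.

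The summed ribosomal protein share was lowest in Cxcl12-led wells, and single members were lower there too. Of the 72 tested members 41 were called lower and 0 higher, 19 of the small and 22 of the large subunit, where 6.41% of all genes were lower and 16.5% higher. The median log2 difference was -1.89 (all genes -0.14), the range -3.50 to -0.99 and the smallest adjusted p 9.85e-05 (edgeR, Benjamini-Hochberg). For all 72 every Cxcl12-led sum lay below every Car1-led sum, which 25.3% of all tested genes did. In S100a8-led wells 62 members did so (18.6% of all genes), in Alas2-led wells 67 (31.1%) and in Cd79b-led wells 18 (9.28%). With DESeq2's size factors the all-gene median moved to 0.74 and the members' to -0.90, 11 members were called lower and 0 were above 0, and the calls over all genes went from 454 higher and 176 lower to 627 and 41 (in S100a8-led wells from 359 and 113 to 438 and 68). The count rests on single libraries: it was 1 without the CD44+ block of shared plate 1, 20 without either of the other CD44+ libraries, 26 without the CD44- block of shared plate 2 and 55 without the CD44- plate, with median differences of -1.69, -1.56 and -1.48, -1.83 and -1.72. Calls over all genes changed as well. In the same order 10 of 2557, 101 of 2607, 48 of 1273, 122 of 2533 and 167 of 2103 genes were called lower.

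**Figure D4:**
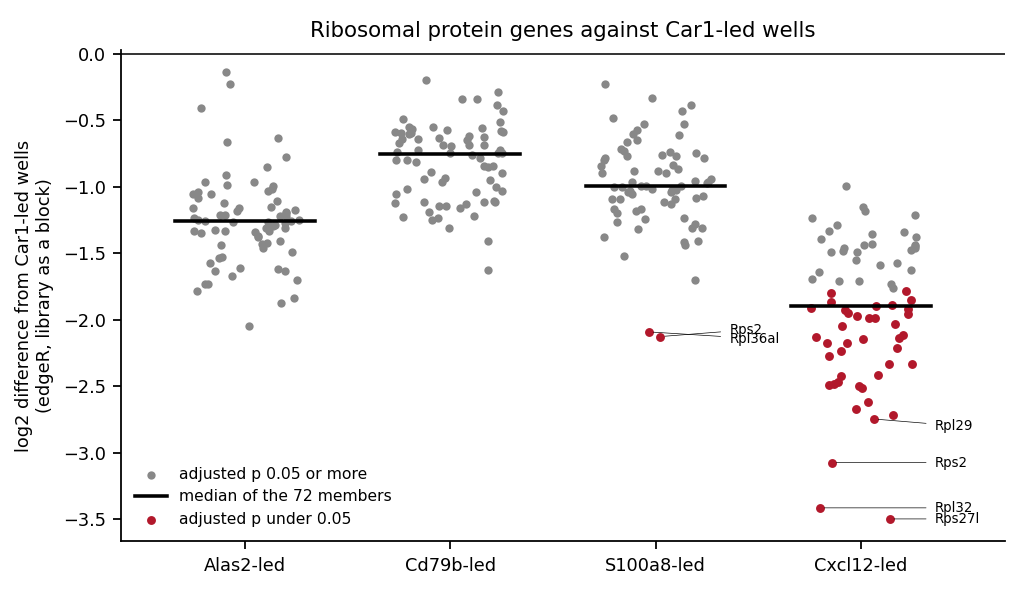
Log2 difference of each of the 72 tested members from Car1-led wells, for wells led by each of the 4 other markers (edgeR with TMM and the library as a block; red, adjusted p under 0.05; black lines, medians). The medians are -1.26, -0.75, -0.996 and -1.89, and the red points are 2 members in S100a8-led and 41 in Cxcl12-led wells.

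The members that stood lowest in stromal wells were Rps27l, Rpl32 and Rps2. Rps27l counted 465, 293 and 408 CPM in the Car1-led sums and 0, 18, 107 and 77 in the Cxcl12-led sums (CD44+ blocks of shared plates 1 and 2, CD44- plate, CD44- block of shared plate 2), where the sum at 0 allows up to 76.5. Its fitted log2 difference was -3.50 ± 0.86 (edgeR adjusted p = 0.000441), a value that depends on how a count of 0 is handled. Rpl32, a large subunit protein, counted 1638, 1392 and 1363 CPM against 153, 71, 0 and 164, with a log2 difference of -3.42 ± 0.77, and the sum at 0 allows up to 322. For Rps27l and Rpl32 the highest Cxcl12-led sum was well below the lowest Car1-led sum.

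Rps2 had the lowest fitted difference of all members in Alas2-led, Cd79b-led and S100a8-led wells. It counted 3995, 4571 and 3793 CPM in Car1-led sums; 855, 2407, 2567, 1413 and 2356 in Cd79b-led sums; 402, 1695, 1526, 409 and 1250 in S100a8-led sums; and 255, 653, 322 and 691 in Cxcl12-led sums. No sum of another class reached the Car1-led sums. Its log2 difference was -3.08 ± 0.76 in Cxcl12-led wells (edgeR adjusted p = 0.000503), -2.13 in S100a8-led wells (0.0122) and -1.63 in Cd79b-led wells (0.0743). Against the median of the members in the same wells Rps2 was lower by a further -1.18, -1.13 and -0.87 on the log2 scale. Since 90.3% of its 3′ stretches recur in 91 other genes, 90 of them pseudogenes, its level is uncertain.

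Rpl29 was also among the 5 lowest in stromal wells, at a log2 difference of -2.75 ± 0.79 (edgeR adjusted p = 0.0038). It counted 1552, 1173 and 1001 CPM in Car1-led sums and 76.5, 123, 215 and 153 in Cxcl12-led sums, which did not overlap. Among members named for their role, Rplp0 (-2.67), Rpl3 (-2.51), Rps19 (-2.47), Rpl11 (-2.17), Rpl7 (-2.03), Rpl5 (-1.99), Rpl36a (-1.99), Rpl22 (-1.97), Rps4x (-1.96), Rps27a (-1.93) and Rps6 (-1.86) were called lower in Cxcl12-led wells. Rpl41 (-1.71), Rpsa (-1.69), Rpl10 (-1.49), Rpl39 (-1.48), Rplp1 (-1.43) and Rpl36al (-1.21) were not.

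Rpl36al had another pattern than most members. Its Car1-led sums were 1033, 627 and 613 CPM, its S100a8-led sums 0, 214, 278, 136 and 174, and its Cxcl12-led sums 408, 123, 537 and 110. The S100a8-led and stromal sums overlapped, with log2 differences from Car1-led wells of -2.09 (edgeR adjusted p = 0.0181) and -1.21 (0.256); the difference between those 2 classes was not tested. The S100a8-led sum at 0 came from the CD44+ plate and allows up to 302 CPM. Both S100a8 calls were lost without the CD44+ plate, without the CD44+ block of shared plate 1 and without the wells of low quality.

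The S100a8-led sums of Rpl4 differed by plate. It counted 6074 and 7566 CPM in the S100a8-led wells of the CD44+ and CD44- blocks of shared plate 1 but 1709, 2187 and 1500 in those of the CD44+ plate, the CD44+ block of shared plate 2 and the CD44- plate. On shared plate 1 the Cd79b-led and Car1-led wells did not have such values, at 3022 and 4320 CPM. Single wells weighed heavily in both S100a8-led sums of shared plate 1. The deepest well held 62249 of 172773 transcripts in the CD44+ block and 26244 of 68927 in the CD44- block. Levels of Rpl4 in single wells are not given here, so how many wells carried the high values is not known. This gene was singled out after its values were seen, and no test was made of the plates.

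**Figure D5:**
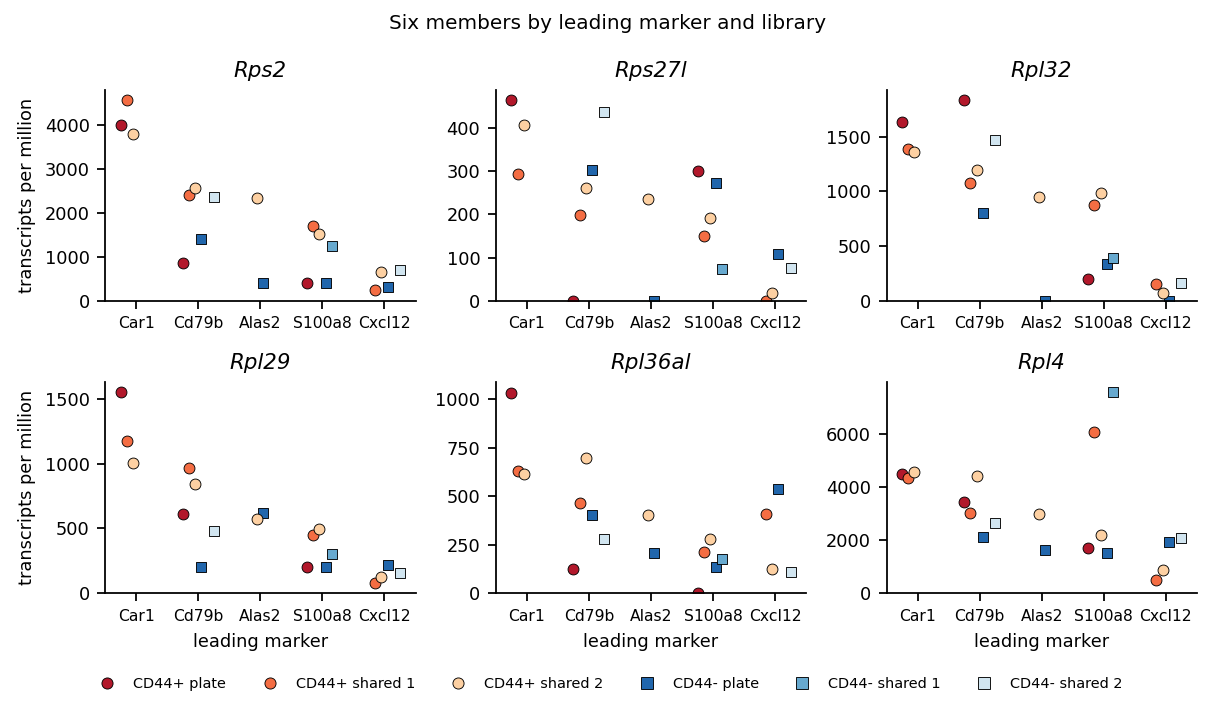
Level in CPM of Rps2, Rps27l, Rpl32, Rpl29, Rpl36al and Rpl4 (vertical axes from 0) in each sum of at least 3 wells, by leading marker; circles are CD44+ and squares CD44- libraries, coloured by library. Cxcl12-led sums of Rpl32 lie at 0 to 164 against 1363 to 1638 in Car1-led sums, and S100a8-led sums of Rpl4 are highest on shared plate 1.

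Other genes of the translation machinery were read from lists beside the members. Between the sorts edgeR without the block called 0 members of any list, with medians of 0.74 for 24 ribosome biogenesis factors, 0.63 for 30 initiation factors, 0.55 for 6 elongation factors and 0.55 for 20 mitochondrial ribosomal proteins. With the block 2 of the 24 biogenesis factors, Nolc1 and Nop56, and 1 of the 20 mitochondrial ribosomal proteins were called higher, beside 1.75% of all genes. Such counts are too small to describe the lists. In Cxcl12-led wells Gnb2l1, a small subunit protein outside the naming rule, was called lower with a log2 difference of -2.35, as were 3 of 7 elongation factors (Eef1g, Eef1b2 and Eef1a1, -2.66 to -1.96), 3 of 29 initiation factors, 1 of 18 biogenesis factors and 1 of 13 mitochondrial ribosomal proteins, beside 6.41% of all genes. The counts of the last 2 lists are near that background. Of 11 other mRNAs with a terminal oligopyrimidine tract, 4 were lower and Vim, an intermediate filament protein, was higher by 4.45 on the log2 scale. A rise in this list was not particular to Cxcl12-led wells, as 1 of the 11 was called higher in Cd79b-led and in S100a8-led wells too. Of 8 regulators of ribosome synthesis and p53, edgeR called 0 between the sorts, with a median of -0.17, and 0 of 7 in Cxcl12-led wells.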

How the data were processed

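The authors deposited 4 tables, 1 per plate, of expected counts: transcripts per gene and well estimated from unique molecular identifiers (UMIs), without scaling between wells. Alignment used BWA 0.7.15 and build mm10, per the submitters' processing notes; for the counter, its annotation and strandedness nothing is given in the sources used here. Undoing a UMI saturation correction for 4096 possible UMIs returned 100.0% of 796931 values above 0 to whole numbers (tolerance 0.011), so the values carry that correction; it added 1.53% to ribosomal protein transcripts. Marrow was digested enzymatically, per the labels' protocols. Wells were read as numbered by row. No doublet caller was run.

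Wells with at least 1000 transcripts outside the spike-ins were summed per library, or per library and leading marker (at least 3 wells), and rounded. CPM are counts per 1000000 transcripts of the library or class sum, without the TMM factor. Sums were compared with edgeR 4.0.16 in R 4.3.3 (quasi-likelihood test, two-sided, TMM, filterByExpr, Benjamini-Hochberg over all genes tested, threshold 0.05), which was tested on simulated data. The SE is the absolute log2 difference divided by the square root of F. Wells led by each marker were fitted together with the library as a block. Alternatives included DESeq2 1.42.0. Deviations from the sort means correlated at 0.43, 0.30 and 0.33 in same-numbered libraries and -0.35 to 0.07 in others, and the labels put libraries 2 and 3 of both sorts on shared plates, so they were treated as pairs. Members matched GENCODE vM21 by symbol and chromosome (77 of 77).

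Members, lists and tests were chosen with earlier results of these data known. Named members are the 10 of smallest p, the 6 of highest level and those of opposite sign between the sorts, up to 5 called per direction and marker, and members listed by role; some that this rule names are not reported here. Replicates from separate animals are not stated.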

Additional observations from a re-analysis of the deposited data

Results flagged for a closer look

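The 1193 wells with under 1000 transcripts, which none of the comparisons used, held ribosomal protein transcripts at 7.13% of their sum. By library this was 7.10, 7.47 and 8.53% in CD44+ and 5.58, 7.98 and 8.03% in CD44-. There are no wells without a cell to set this against, and it is marked because the signal lies in data outside the main measurement.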

How the results depend on the processing

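Depth limits the CD44- sort most, and single members in Cxcl12-led and Alas2-led sums rest on few transcripts. The number of members called higher in the CD44+ sort was 0 without pairing, and 9 with the replicate block, 10 with DESeq2, 6 without a filter on low counts, 1 without wells of low quality, 5 without those wells and with the replicate block (added after seeing the data), and 0 to 2 when single libraries were left out, with 2 without the CD44- plate. Over all genes the block moved the calls from 1 higher and 24 lower to 43 and 113, and in the lists of other translation genes from 0 to 2 biogenesis factors and 1 mitochondrial ribosomal protein. Genes called higher numbered 35 of 16917 with DESeq2 and 142 of 16925 without the filter. Without wells of low quality they numbered 4 of 2204, and 25 of 2204 with the block added. Without the CD44- plate they numbered 7 of 3108. The comparisons between markers have the library as a block throughout.

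Members called lower than in Car1-led wells are given with all genes called lower in brackets. In Cd79b-led wells they numbered 1 without wells of low quality (162 of 2568) and 0 to 1 with a library left out (39 to 133 genes). In S100a8-led wells they numbered 4 with DESeq2 (61 of 15474), 1 with its size factors (68 of 2747), 0 by marker alone (8 of 403) and 10 with at least 10 marker transcripts (95 of 1311). There they were 0 without wells of low quality (95 of 2568) and 0 to 3 with a library left out (19 to 106 genes). In Cxcl12-led wells they numbered 27 (46 of 15474), 11 (41 of 2747), 12 (14 of 403) and 18 (53 of 1311) in the first 4 of the S100a8 settings. With a library left out they were 1 to 55 (10 to 167 genes). The difference in share was 1.68 points as the mean of wells and, in settings added after seeing the data, 7.33 without mitochondrial and Kcnq1ot1-type transcripts and 1.16 without Car1-led wells; it was 3.71 to 5.61 with a library left out.

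Of 837 values of single members under other settings, 708 kept direction and call, 33 gained and 88 lost the call, and 8 changed sign: Rpl5 -0.18 and Rpsa -0.011 when thinned, Rpl5 -0.12 without Cxcl12-led wells, Rpl5 -0.077 without Car1-led wells, Rpl4 0.18 without the filter and 0.41 without the CD44- block of shared plate 1 (-0.44 to 0.41 with a library left out), and Rpl10 0.29 and Rpl36al 0.49 in Cxcl12-led wells by marker alone. The cause was not tested. Too few sums were left for Alas2-led wells by marker alone, with at least 10 transcripts, or without the CD44- plate or the CD44+ block of shared plate 2, and for Cd79b-led wells with at least 10.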
